A study of Mus musculus with 8 samples.

Results

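Genes of the major histocompatibility complex (MHC) were compared between livers of mice with and without FoxO1 in myeloid cells. The set was chosen by name and not by its values: every gene of the count table with a symbol starting H2-, plus B2m, Cd74, Ciita, Tap1, Tap2, Tapbp and Nlrc5. It held 52 of 46517 genes, of which 37 belonged to class I, 14 to class II and 1, H2-Ke6, to neither. All H2 genes lay with Tapbp, Tap1 and Tap2, 48 of the 52 in all, within 3.568 Mb of chromosome 17 (GRCm38, chr17:33915899-37483552).

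Liver RNA came from 4 WT and 4 MøFoxO1-KO male mice of the C57BL/6 strain, all 31 weeks old. Both groups had eaten a NASH diet, which induces nonalcoholic steatohepatitis, for 25 weeks from 6 weeks of age, and both had been fasted for 16 h. Both carried the floxed allele FoxO1 loxP/loxP, and only MøFoxO1-KO mice also carried Lyz2-Cre, in which the lysozyme 2 promoter drives the recombinase in macrophages and other myeloid cells. Mice are named by genotype and replicate number, WT 22 to 25 and KO 26 to 29.

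Class I molecules display peptides from inside the cell to CD8+ T cells and natural killer cells. They consist of a heavy chain, encoded by a polymorphic H2 gene, and the invariant light chain β2-microglobulin, and hepatocytes carry them. Class II molecules are pairs of an alpha and a beta chain that display peptides from engulfed material to CD4+ T cells, and in liver they are carried mostly by Kupffer cells, other macrophages, dendritic cells and B cells. H2 genes differ strongly in sequence between mouse haplotypes, and the reads had been counted on the mouse reference build, which carries 1 haplotype.

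Libraries held 15253218 to 18025481 counts, of which the 52 genes took 0.686% to 0.918% per mouse. Foxo1 measured in whole liver averaged 403.7 ± 73.9 normalized counts for WT against 359.0 ± 73.4 for MøFoxO1-KO mice (SD, n = 4 each, edgeR adjusted P = 0.686, Benjamini-Hochberg). RNA of the whole organ is no check of a deletion restricted to myeloid cells. Normalized counts are counts divided by the library size after trimmed-mean (TMM) scaling and multiplied by the mean library size. Hepatocyte markers, summed over 7 genes, ranged from 1093156 to 1504630 normalized counts in WT and from 1311821 to 1963143 in MøFoxO1-KO mice, and all 7 had log2 fold changes above 0, with 4 at an unadjusted P under 0.05 in edgeR, where 48.3% of all tested genes were above 0 and 16.7% were under that P.

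Before the values, the starts of 7 genes are shown, because these genes differed in the direction of their values although most carry the same element. Each line holds 180 bases of a RefSeq promoter (GRCm38.p6, 5′ to 3′ along the gene, ending at the base before the RefSeq start), and capitals mark on either strand the Y box core GATTGG, the κB core GGGATTCC and the interferon regulatory factor core TTTCNNTT, which do not overlap one another here. RefSeq starts can differ from the gene bounds of GENCODE, and all of the bases shown for H2-D1 and most of those for H2-T23 lie inside the GENCODE gene.
H2-Aa (class II alpha chain, chr17:34287824-34288003, minus strand): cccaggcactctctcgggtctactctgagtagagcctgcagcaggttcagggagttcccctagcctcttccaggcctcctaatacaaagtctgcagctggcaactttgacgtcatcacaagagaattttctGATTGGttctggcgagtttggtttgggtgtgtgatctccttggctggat
H2-Eb1 (class II beta chain, chr17:34305687-34305866, plus strand): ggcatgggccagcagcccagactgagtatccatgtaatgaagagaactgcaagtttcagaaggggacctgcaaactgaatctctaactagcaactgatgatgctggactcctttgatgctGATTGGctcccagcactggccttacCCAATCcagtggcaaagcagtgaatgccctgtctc
H2-D1 (classical class I, chr17:35262914-35263093, plus strand): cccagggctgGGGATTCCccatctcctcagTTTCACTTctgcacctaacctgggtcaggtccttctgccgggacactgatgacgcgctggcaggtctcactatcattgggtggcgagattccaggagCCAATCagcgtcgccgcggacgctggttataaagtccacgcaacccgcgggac
H2-Q10 (secreted class I of liver, chr17:35469909-35470088, plus strand): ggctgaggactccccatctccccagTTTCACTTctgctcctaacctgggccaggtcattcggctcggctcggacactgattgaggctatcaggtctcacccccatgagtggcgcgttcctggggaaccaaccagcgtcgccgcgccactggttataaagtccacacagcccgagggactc
H2-T22 (non-classical class I, chr17:36042743-36042922, minus strand): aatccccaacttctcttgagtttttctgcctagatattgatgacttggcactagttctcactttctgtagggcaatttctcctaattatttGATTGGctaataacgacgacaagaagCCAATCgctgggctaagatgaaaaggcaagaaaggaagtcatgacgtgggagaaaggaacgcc
H2-T23 (non-classical class I, chr17:36032702-36032881, minus strand): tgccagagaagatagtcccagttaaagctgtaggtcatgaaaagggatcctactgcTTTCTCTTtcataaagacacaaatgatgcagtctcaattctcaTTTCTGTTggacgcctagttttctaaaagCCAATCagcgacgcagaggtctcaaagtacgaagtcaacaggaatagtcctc
H2-T-ps (class I, named as a pseudogene, chr17:36111677-36111856, minus strand): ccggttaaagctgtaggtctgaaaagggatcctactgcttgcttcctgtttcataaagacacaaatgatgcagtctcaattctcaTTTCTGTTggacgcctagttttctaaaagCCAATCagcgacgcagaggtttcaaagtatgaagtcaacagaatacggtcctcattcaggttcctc

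Promoters of 35 of the 52 genes were found in RefSeq, each covering 250 bases before and 50 after the start. The Y box core GATTGG, part of the conserved element through which class I and class II promoters are read, occurred on either strand in 27 of the 35, comprising 19 of 26 class I and 7 of 8 class II promoters, and in 16.1% of all 32851 promoters. Its longer form CTGATTGG occurred in 19 of the 35 and in 4.10% of all promoters. The κB core GGGATTCC, a shortened site of NF-κB, occurred in 4 members, H2-K1, H2-D1, H2-Q6 and H2-Q7, and in 1.06% of all promoters. The core of interferon regulatory factor sites, TTTCNNTT, occurred in 20 of the 35, comprising 16 class I and 3 class II promoters, and in 23.9% of all promoters. In H2-Aa and H2-T22 its match lay upstream of the bases shown, and the window of H2-Eb1 held none. H2-Q10 held neither a Y box core nor a κB core, although its shown bases were 77.9% identical to those of H2-D1 in an alignment. H2-T23 and H2-T-ps were 78.9% identical. These matches describe letters and not binding.

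Of the 52 genes, 30 passed the filter on low counts, 21 of class I and 9 of class II, and were tested with edgeR among 13278 genes. No member reached the study's limits, an adjusted P under 0.05 with an absolute log2 fold change over 1.5, which 0.188% of all tested genes passed, nor an adjusted P under 0.05 alone (0.294% of tested genes; edgeR, Benjamini-Hochberg). At an unadjusted P under 0.05, edgeR counted 10 of the 21 class I genes, 6 higher and 4 lower in MøFoxO1-KO mice, beside 16.7% of all tested genes (8.65% higher and 8.06% lower). Among the 9 class II genes it counted 2, H2-DMb2 higher and H2-Eb1 lower. At an adjusted P under 0.05, limma-voom also counted 0 members (0.181% of tested genes). DESeq2 counted 5, all of class I, namely B2m, H2-D1 and H2-T-ps higher and H2-Q1 and H2-Q10 lower, beside 4.41% of tested genes. Adding the fold limit left 2 members in DESeq2, H2-Q1 and H2-T-ps, beside 1.08% of tested genes.

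Neither class lay on 1 side of 0. In edgeR, 12 class I genes had a log2 fold change above 0 and 9 below, with a median of 0.04, and 7 class II genes were above 0 and 2 below, with a median of 0.30. Over all tested genes 48.3% were above 0 and the median was -0.01. The 7 class II genes above 0 became 2 when KO 29 was left out. All 4 mice of a genotype lay on the same side of the other genotype in 4 class I genes, 2 higher and 2 lower, and in 1 class II gene, higher, beside 9.71% of all tested genes (5.00% higher and 4.71% lower). The summed level of the class I H2 genes was 79875 ± 8821 normalized counts in WT and 72313 ± 10948 in MøFoxO1-KO mice (SD, n = 4 each), a ratio of 0.905. For the class II H2 genes the sums were 2955 ± 1076 and 2821 ± 1813 (SD, n = 4 each), a ratio of 0.955.

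**Figure D1:**
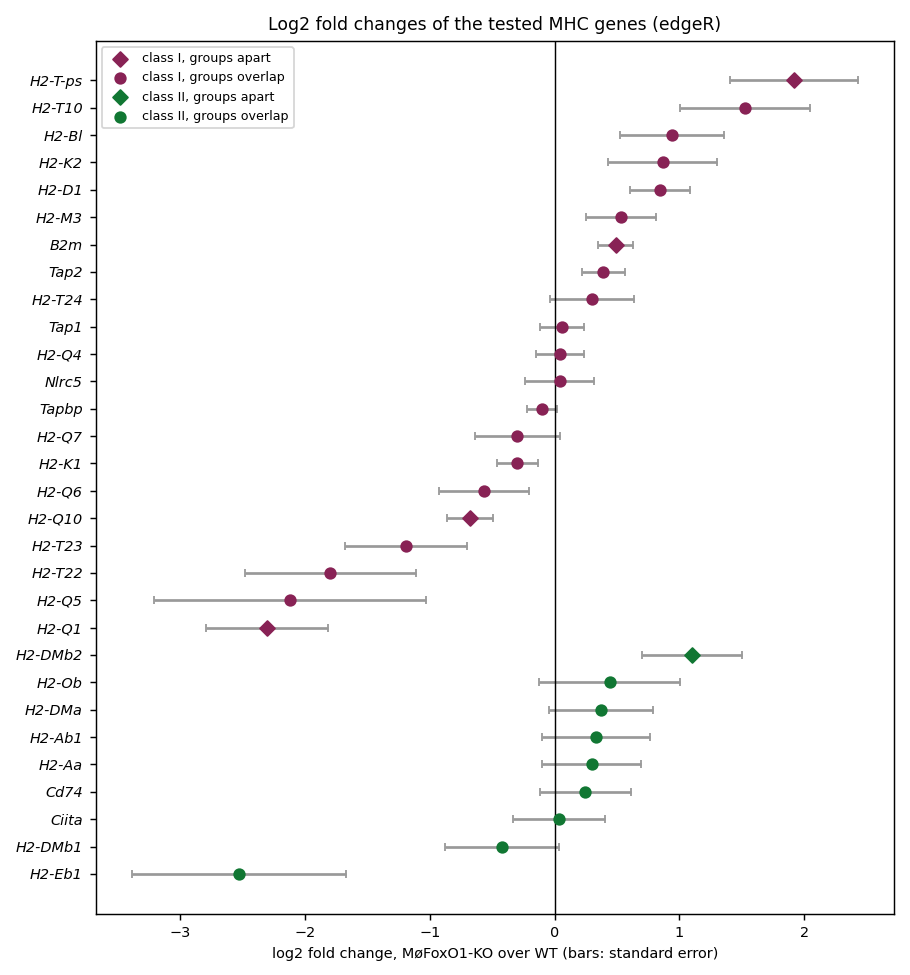
Log2 fold changes of the 30 tested MHC genes, MøFoxO1-KO over WT, from edgeR, with bars for the standard error; class I genes are purple, class II genes green, and diamonds mark genes whose mice did not overlap between genotypes. Values run from -2.53 for H2-Eb1 to 1.92 for H2-T-ps, and both classes lie on both sides of 0.

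Per unit of gene length, B2m was by far the most abundant class I transcript, with a mean of 2919 ± 266 counts per kilobase and 1000000 library counts in the WT group, against 4097 ± 409 in the MøFoxO1-KO group (SD, n = 4 each). The classical heavy chain H2-K1 followed in WT at 567.0 ± 53.7, then the secreted H2-Q10 at 465.8 ± 72.7 and the classical heavy chain H2-D1 at 355.0 ± 115.6 (SD, n = 4 each). The ranges of neighbours overlapped among H2-K1, H2-Q10 and H2-D1, whereas none of them overlapped B2m above or H2-T23 below. In MøFoxO1-KO mice H2-D1 stood second, at 637.2 ± 151.5, ahead of H2-K1 at 460.6 ± 87.5 and H2-Q10 at 291.0 ± 67.9 (SD, n = 4 each). Further down, H2-T22 was sixth of 21 in WT and 14th in MøFoxO1-KO mice, and H2-T10 was 15th and ninth. In class II, the invariant chain Cd74 led at 101.0 ± 31.7 in WT, followed by H2-Eb1, H2-Ab1 and H2-Aa, whose ranges overlapped, and then by H2-DMa and H2-DMb1. H2-Eb1 took the second rank at 41.7 ± 19.7 in WT and the fourth at 7.13 ± 10.6 in MøFoxO1-KO mice (SD, n = 4 each).

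B2m (chr2:122147686-122153083), the light chain shared by all class I molecules, counted 42732, 39634, 36796 and 45453 normalized counts in WT 22 to 25. In KO 26 to 29 it counted 55363, 60714, 50957 and 63995. Every MøFoxO1-KO mouse lay above every WT mouse. The log2 fold change was 0.49 (SE 0.14, edgeR), with a Benjamini-Hochberg adjusted P of 0.148 in edgeR and 0.0047 in DESeq2. The exact two-sided permutation test gave P = 0.0286, the smallest that 4 mice against 4 allow. In bulk RNA, more cells of a type and more RNA per cell cannot be told apart, here or in any result that follows.

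The classical heavy chains, which present peptides to CD8+ T cells, had values of opposite sign. H2-D1 (chr17:35262730-35267499) counted 14129, 22158, 12187 and 11568 in WT 22 to 25 and 23467, 28562, 20567 and 35171 in KO 26 to 29. Only WT 23 reached into the range of MøFoxO1-KO mice, passing KO 28. The log2 fold change of H2-D1 was 0.84 (SE 0.24), with an adjusted P of 0.150 in edgeR and 0.0202 in DESeq2, and P = 0.0571 in the exact permutation test. H2-K1 (chr17:33996017-34000333) counted 27606, 22561, 23048 and 23757 in WT mice and 14983, 18400, 22909 and 22485 in KO 26 to 29. KO 26 and KO 27 lay well below the WT mice, and KO 28 and KO 29 near their lower end, and the log2 fold change was -0.30 (SE 0.16, edgeR adjusted P = 0.388). Within a mouse, H2-D1 counts per 100 counts of H2-K1 were 51.2, 98.2, 52.9 and 48.7 in WT 22 to 25 and 156.6, 155.2, 89.8 and 156.4 in KO 26 to 29. WT 23 and KO 28 lay between the other mice on this ratio. Of the 100-base windows along their annotated transcripts, 3.59% for H2-D1 and 0.957% for H2-K1 occurred in another gene as well.

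**Figure D2:**
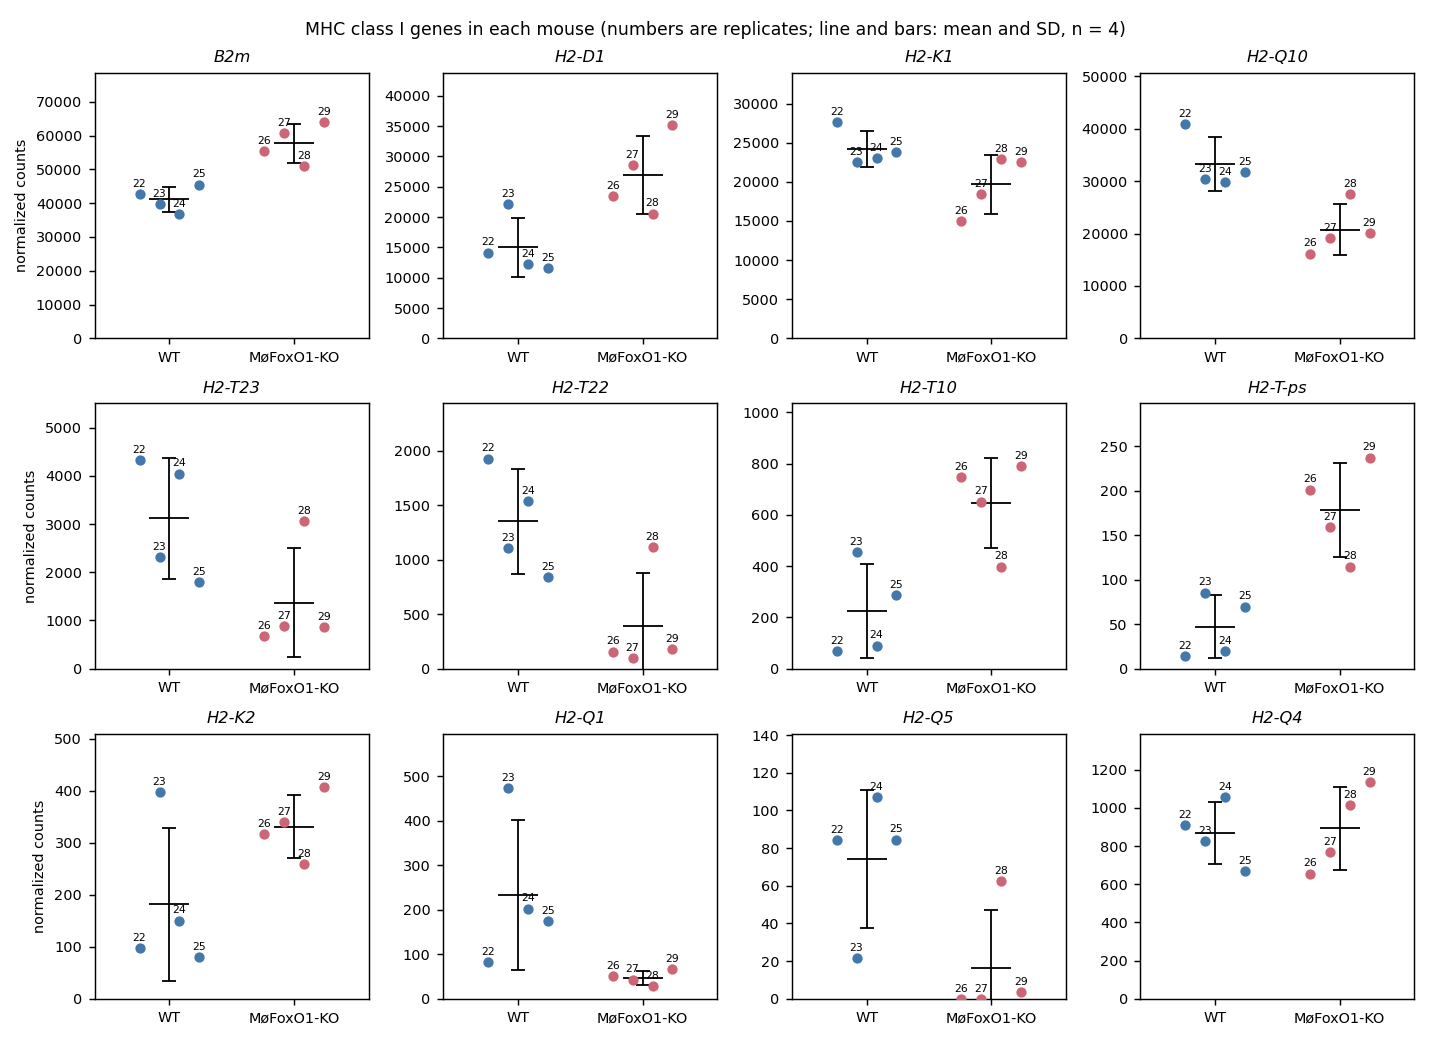
Normalized counts (linear axes from 0) of 12 class I genes in each mouse, WT blue and MøFoxO1-KO red, numbered by replicate, with lines and bars for the mean and SD of 4 mice. B2m and H2-T-ps are higher and H2-Q10 and H2-Q1 lower in every MøFoxO1-KO mouse, and KO 28 stands among the WT mice for H2-T23, H2-T22 and H2-Q5.

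H2-Q10 (chr17:35470089-35474563) encodes a soluble class I protein secreted by the liver. It counted 40892, 30397, 29875 and 31655 in WT 22 to 25 and 16146, 19192, 27544 and 20100 in KO 26 to 29. All MøFoxO1-KO mice lay below all WT mice, KO 28 the closest. The log2 fold change was -0.68 (SE 0.19), with an adjusted P of 0.143 in edgeR and 0.0171 in DESeq2 (exact permutation P = 0.0286). Another Q-region gene, H2-Q1 (chr17:35320405-35325099), counted 82.4, 474.5, 202.9 and 174.1 in WT mice and 50.8, 43.0, 28.4 and 67.1 in KO 26 to 29. Again the genotypes did not overlap, and WT 23 was far above the rest. H2-Q1 had the lowest class I log2 fold change, -2.30 (SE 0.49), with an adjusted P of 0.0968 in edgeR and 1.6e-04 in DESeq2, and it was -1.70 (edgeR adjusted P = 0.123) without WT 23. Without the filter on low counts its edgeR adjusted P was 0.0118, where 0.866% of genes had an adjusted P under 0.05.

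H2-Q5 (chr17:35394126-35397800) counted 84.2, 21.6, 107.0 and 84.5 in WT 22 to 25, and 0, 0, 62.6 and 3.36 in KO 26 to 29. It was listed at 0 in KO 26 and KO 27, while KO 28 lay within the WT range. The fitted log2 fold change was -2.12 (SE 1.09, edgeR adjusted P = 0.362), which became -5.93 (adjusted P = 0.0306) without KO 28. H2-Q6 and H2-Q7 encode the Qa-2 antigen, and H2-Q4 a neighbouring non-classical chain. Their log2 fold changes were -0.57 (SE 0.36), -0.30 (SE 0.34) and 0.04 (SE 0.19), and their genotypes overlapped. The Q genes resemble one another: of 100-base windows along their annotated transcripts, 14.0% for H2-Q5, 12.0% for H2-Q7 and 8.01% for H2-Q10 occurred in another gene too, so that counting may split such reads between them.

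In the T region, low and high values stood side by side. H2-T23 (chr17:36029773-36032855) encodes Qa-1, the ligand of the natural killer receptor CD94/NKG2A, and counted 4334, 2310, 4046 and 1795 in WT 22 to 25 and 666.6, 877.0, 3056 and 853.4 in KO 26 to 29. H2-T22 (chr17:36037128-36042747), a ligand of γδ T cell receptors that presents no peptide, counted 1927, 1102, 1534 and 839.5 in WT mice and 155.1, 99.0, 1115 and 177.8 in KO 26 to 29. For both genes KO 26, KO 27 and KO 29 lay far below every WT mouse, and KO 28 lay among the WT mice. The log2 fold change was -1.19 (SE 0.49, edgeR adjusted P = 0.259) for H2-T23 and -1.80 (SE 0.68, adjusted P = 0.236) for H2-T22. Without KO 28 the values were -1.95 (adjusted P = 0.0346) and -3.21 (adjusted P = 0.00512).

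H2-T10 (chr17:36115876-36121465), the close relative of H2-T22 and also a γδ T cell ligand, counted 68.3, 455.8, 89.4 and 286.5 in WT 22 to 25 and 748.0, 651.5, 398.2 and 791.9 in KO 26 to 29. It stood highest where H2-T22 stood lowest, in KO 26, KO 27 and KO 29. The log2 fold change was 1.53 (SE 0.52, edgeR adjusted P = 0.204, exact permutation P = 0.0571), and 2.13 (edgeR adjusted P = 0.141) without WT 23. H2-T-ps (chr17:36109234-36111658) counted 14.0, 85.5, 19.4 and 69.6 in WT mice and 201.1, 158.7, 114.7 and 237.1 in KO 26 to 29, with no overlap. Its log2 fold change of 1.92 (SE 0.51) was the highest of the 30 genes, with an adjusted P of 0.133 in edgeR, 0.00608 in DESeq2 and 0.0490 in edgeR without the filter on low counts. The counts of H2-T10 per 100 counts of H2-T22 ran from 3.55 to 41.4 in WT mice, stood at 35.7 in KO 28, and were 482.1, 657.8 and 445.3 in KO 26, KO 27 and KO 29. These 2 genes share part of their sequence, with 7.06% of the 100-base windows of H2-T10 also found in H2-T22. Their summed level was 1576 ± 356 normalized counts in WT and 1034 ± 332 in MøFoxO1-KO mice (SD, n = 4 each).

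Among the remaining class I genes, H2-K2 counted 97.3, 396.9, 150.3 and 80.6 in WT 22 to 25 and 317.0, 340.1, 258.9 and 406.0 in KO 26 to 29. GENCODE lists H2-K2 as a transcribed pseudogene, and H2-Bl, H2-Q5 and H2-T10 as polymorphic pseudogenes. WT 23 stood with the MøFoxO1-KO mice, and the log2 fold change of 0.87 (edgeR adjusted P = 0.356) became 1.59 (adjusted P = 0.0349) without WT 23. H2-Bl, at 6.55 to 14.7 normalized counts in WT and 9.55 to 24.6 in MøFoxO1-KO mice, had a log2 fold change of 0.94 (SE 0.42). H2-M3, which presents N-formylated bacterial peptides, and H2-T24 had values of 0.53 (SE 0.28) and 0.30 (SE 0.34), and both overlapped between genotypes.

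The genes that load class I molecules and the class I regulator had log2 fold changes of -0.10 to 0.39, and none passed the adjusted limit. Tap1 and Tap2 form the peptide transporter of the endoplasmic reticulum, Tapbp (tapasin) bridges it to the class I chain, and Nlrc5 is the transactivator of class I genes. Tap2 was 404.6 ± 92.5 normalized counts in WT and 530.4 ± 59.8 in MøFoxO1-KO mice (SD, n = 4 each), a log2 fold change of 0.39 (SE 0.17, edgeR adjusted P = 0.293). For Tap1, Tapbp and Nlrc5 the log2 fold changes were 0.06 (SE 0.18), -0.10 (SE 0.12) and 0.04 (SE 0.28), and all 3 overlapped between genotypes. The direction of Tap1, Nlrc5 and H2-Q4 turned when single mice were left out.

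Among the class II chains, H2-Aa and H2-Ab1, which pair into the I-A molecule, varied together from mouse to mouse. H2-Aa (chr17:34282744-34287827) counted 989.3, 717.2, 1236 and 639.6 in WT 22 to 25 and 589.0, 677.8, 923.5 and 2212 in KO 26 to 29. H2-Ab1 (chr17:34263209-34269418) counted 1241, 676.9, 1416 and 687.3 in WT mice and 533.4, 816.2, 1230 and 2479 in KO 26 to 29. Both were highest in KO 29, with the other MøFoxO1-KO mice within or below the range of WT mice. Their log2 fold changes were 0.30 (SE 0.40) and 0.33 (SE 0.44), and -0.29 and -0.23 without KO 29. Counts of H2-Aa per 100 counts of H2-Ab1 stayed at 79.7 to 106.0 in WT and at 75.1 to 110.4 in MøFoxO1-KO mice.

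**Figure D3:**
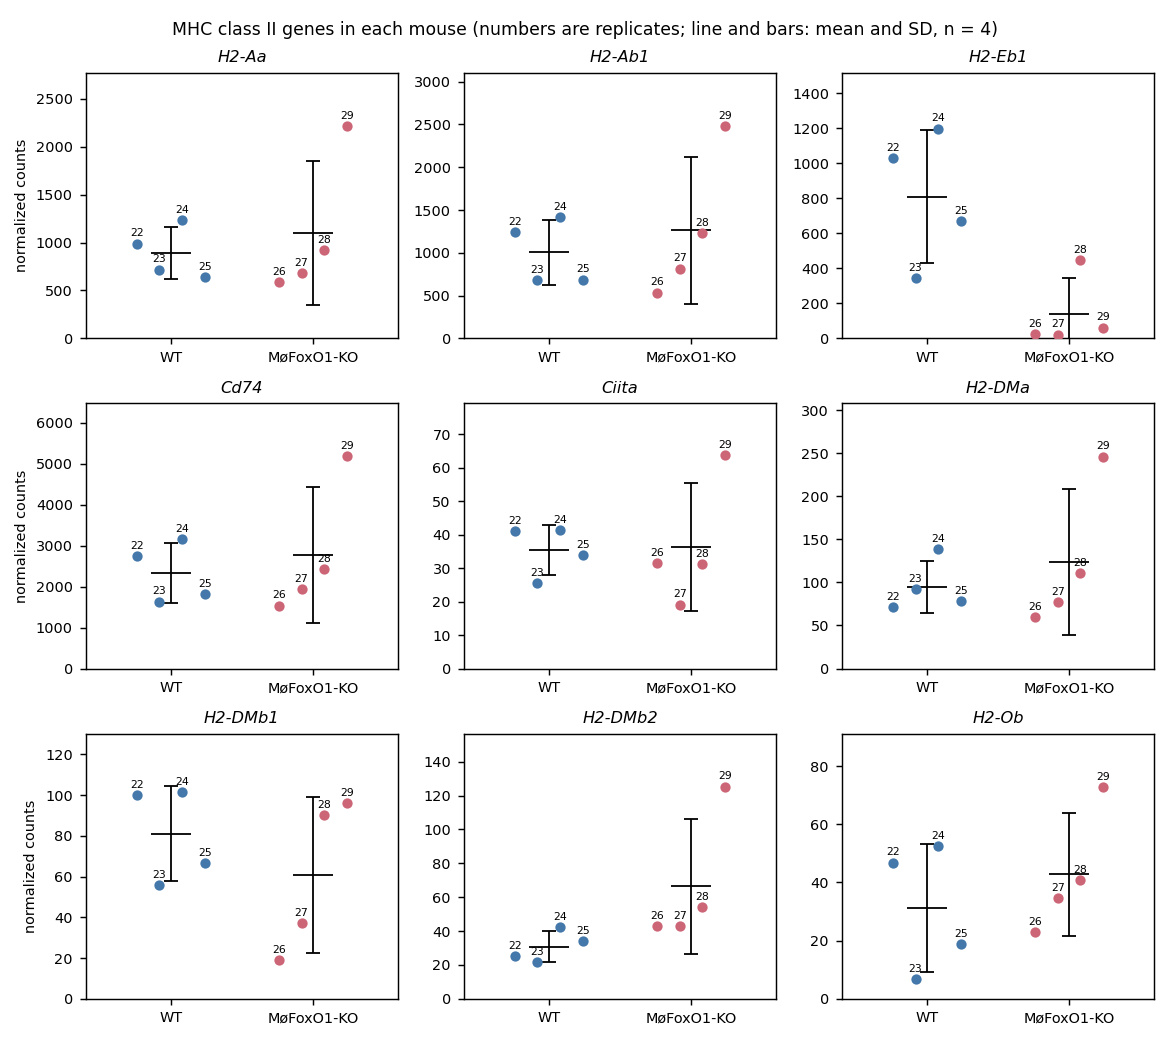
Normalized counts (linear axes from 0) of the 9 tested class II genes in each mouse, WT blue and MøFoxO1-KO red, numbered by replicate, with lines and bars for the mean and SD of 4 mice. KO 29 is the highest mouse for H2-Aa, H2-Ab1, Cd74, Ciita, H2-DMa, H2-DMb2 and H2-Ob, while H2-Eb1 is lowest in KO 26, KO 27 and KO 29.

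H2-Eb1 (chr17:34305877-34316199), the beta chain of the second class II molecule, I-E, departed from this pattern. It counted 1029, 342.9, 1199 and 670.4 in WT 22 to 25 and 23.9, 21.5, 446.6 and 61.5 in KO 26 to 29. KO 26, KO 27 and KO 29 lay far below every WT mouse, whereas KO 28 lay above WT 23. The log2 fold change was -2.53 (SE 0.86), with an edgeR adjusted P of 0.201, a DESeq2 adjusted P of 0.136 and an exact permutation P of 0.0571, and it was -4.50 (edgeR adjusted P = 0.00867) without KO 28. Against its neighbour H2-Ab1, H2-Eb1 had 82.9, 50.7, 84.6 and 97.5 counts per 100 in WT 22 to 25, and 4.49, 2.63, 36.3 and 2.48 in KO 26 to 29. KO 29, the mouse with the most H2-Aa and H2-Ab1, had the lowest value of H2-Eb1 relative to H2-Ab1. None of the 100-base windows of H2-Eb1, H2-Aa or H2-Ab1 was found in another annotated gene.

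**Figure D4:**
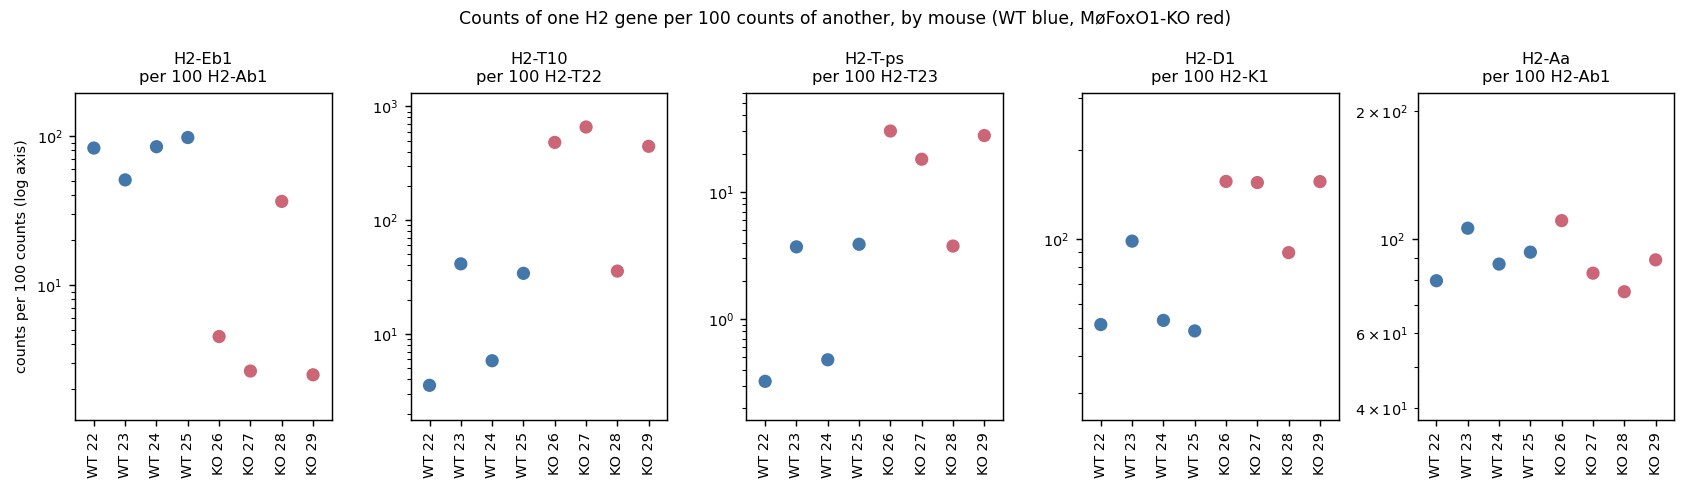
Counts of one H2 gene per 100 counts of another in each mouse (log axes), WT blue and MøFoxO1-KO red. KO 26, KO 27 and KO 29 stand apart for H2-Eb1 per H2-Ab1, H2-T10 per H2-T22, H2-T-ps per H2-T23 and H2-D1 per H2-K1, with KO 28 at or nearer the WT mice, while H2-Aa per H2-Ab1 stays between 75.1 and 110.4 in all 8 mice.

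The count of members past both limits in edgeR was therefore 0 with all mice, 4 without KO 28 (H2-Eb1, H2-T22, H2-T23 and H2-Q5, beside 0.608% of tested genes in that fit) and 1 without WT 23 (H2-K2, with 0.258% of tested genes at an adjusted P under 0.05). The C57BL/6 strain has the b haplotype, which makes no I-E alpha chain because the start of its H2-Ea gene is deleted. H2-Ea-ps had 5 counts in WT 23 and 5, 5, 11 and 23 in KO 26 to 29, and 0 in WT 22, 24 and 25. The table holds counts and not reads, so the H2 alleles of each mouse were not examined. KO 26, KO 27 and KO 29 were also the highest mice for H2-D1 and H2-T10. H2-T-ps was higher in every MøFoxO1-KO mouse than in any WT mouse. For all H2 genes of the set, H2-Q10 and H2-Q1 included, the myeloid deletion and differing H2 alleles between mice cannot be told apart. The same holds for Tap1, Tap2, Tapbp and the other genes that lie among the H2 genes on chromosome 17.

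The other class II genes act in loading. Cd74, the invariant chain that escorts new class II molecules, counted 2738, 1632, 3158 and 1811 in WT 22 to 25 and 1533, 1935, 2425 and 5187 in KO 26 to 29, a log2 fold change of 0.25 (SE 0.37) that was -0.25 without KO 29. H2-DMa, the alpha chain of the DM exchanger that removes the invariant-chain remnant, had a value of 0.37 (SE 0.42), and -0.20 without KO 29. Its beta chain is encoded by H2-DMb1, at -0.42 (SE 0.46), and H2-DMb2. H2-DMb2 (chr17:34143307-34151553) counted 25.3, 21.6, 42.4 and 33.8 in WT mice and 43.1, 43.0, 54.0 and 125.3 in KO 26 to 29. The genotypes did not overlap, by a small margin, and the log2 fold change was 1.10 (SE 0.40, edgeR adjusted P = 0.222, exact permutation P = 0.0286), and 0.60 without KO 29. H2-DMb1 and H2-DMb2 share 11.3% and 10.3% of their windows with each other, and their summed level was 111.8 ± 28.9 in WT and 126.9 ± 72.2 in MøFoxO1-KO mice (SD, n = 4 each). H2-Ob, a chain of the DO inhibitor of DM that B cells express, had a value of 0.44 (SE 0.57), and the class II transactivator Ciita had 0.04 (SE 0.37), which was -0.37 without KO 29.

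Of the 22 genes below the filter, 11 had 0 counts in all mice and 7 had at most 7 counts in any mouse. The other 4 reached 10 counts in at least 1 mouse. H2-M2 had 17, 14, 27 and 3 counts in WT 22 to 25 and 3, 3, 1 and 9 in KO 26 to 29, and H2-Q2 had 5 to 15 counts in WT and 5 to 12 in MøFoxO1-KO mice. H2-Oa, the alpha chain of DO, had 1 to 6 counts in WT and 1 to 13 in MøFoxO1-KO mice, and H2-Ea-ps was given above. H2-Ke6, which despite its symbol is no antigen-presenting gene, had 0 to 7 counts and shared 61.6% of its windows with Gm20427.

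The 26 tested members on chromosome 17 are interspersed with 94 other tested genes. Of these 94, 31 had an unadjusted P under 0.05 in edgeR, 28 higher and 3 lower in MøFoxO1-KO mice, beside 16.7% of all tested genes (8.65% higher and 8.06% lower). Apom and Col11a2 had an adjusted P under 0.05 (Benjamini-Hochberg), as did 0.294% of all tested genes. Among the members, higher and lower values were mixed along the interval, partly in runs of neighbours. H2-Q5, H2-Q6, H2-Q7 and H2-Q10 lay below 0, as did H2-T23 and H2-T22, with H2-T-ps and H2-T10 above 0 in the same stretch as these last.

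**Figure D5:**
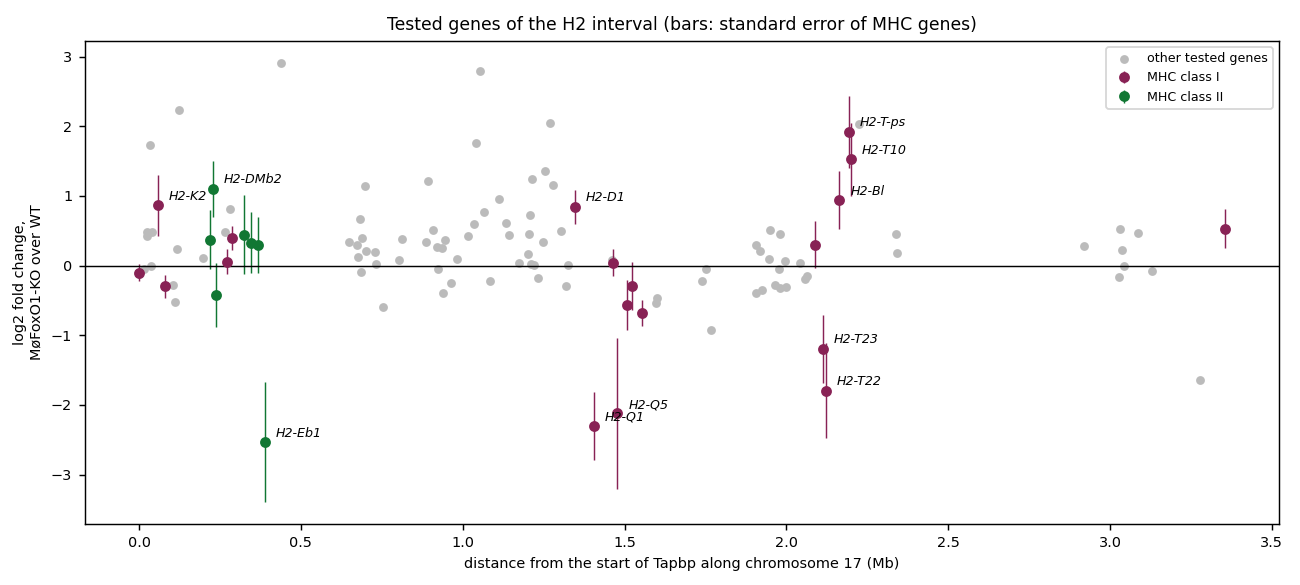
Log2 fold changes (MøFoxO1-KO over WT) of tested genes against the distance in Mb from the start of Tapbp along chromosome 17, with class I genes purple and class II genes green (bars: standard error) and the other 94 tested genes grey. H2-Eb1, H2-Q1, H2-Q5, H2-T22 and H2-T23 lie below -1, and H2-T-ps and H2-T10 above 1.5.

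Other genes of antigen presentation outside the set were read in the same edgeR fit, and none of these lists held a gene at an adjusted P under 0.05. All 6 genes of the immunoproteasome and its activator, which cut proteins into class I peptides, had values above 0 (48.3% of all tested genes), with 4 at an unadjusted P under 0.05 (16.7% of all tested genes). Of these, Psmb9, Psmb10 and Psme2 had log2 fold changes of 0.49, 0.46 and 0.43. Psmb8 counted 460.5, 480.4, 442.6 and 302.4 in WT 22 to 25 and 587.1, 702.8, 726.3 and 941.8 in KO 26 to 29, with no overlap. Its log2 fold change was 0.81 (SE 0.18), with an adjusted P of 0.102 in edgeR and 0.00456 in DESeq2. Psmb8 and Psmb9 lie beside Tap1 and Tap2 on chromosome 17 and are among the 94 other genes of the interval given above. For them too, the myeloid deletion and differing H2 alleles between mice cannot be told apart. Of 9 genes of class I loading 3 had an unadjusted P under 0.05 (16.7% of all tested genes), all with values above 0. These were the chaperone Calr at 0.53 (SE 0.14, DESeq2 adjusted P = 0.00894), the oxidoreductase Pdia3 at 0.39 (SE 0.14) and the translocon subunit Sec61b at 0.45 (SE 0.18). The lowest values of that list were -0.35 (SE 0.22) for Erap1, which trims peptides, and -0.27 (SE 0.24) for Sec61a1.

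Of 11 genes of class II proteolysis and loading, 5 had an unadjusted P under 0.05 in edgeR, beside 16.7% of all tested genes. The protease Ctsh, the thiol reductase Ifi30 and the ubiquitin ligase March1 had log2 fold changes of 0.43, 0.62 and 1.10, and Cd63 and March8 had -0.99 and -0.45. Of 20 tested genes listed as regulators of MHC transcription, 4 were past that limit, beside 16.7% of all tested genes. They included Socs1, an inhibitor of cytokine signalling, at 1.05 (SE 0.44), and the acetyltransferases Ep300 and Kat2b, both at -0.28 (SE 0.11 each). Rfx5, whose protein binds the X box of MHC promoters, was at -0.36 (SE 0.22). Nlrp3, in the same list although it encodes a sensor of innate immunity and no MHC transactivator, was at 0.81 (SE 0.68). Ifng, the gene of interferon-γ, had 0 to 5 counts per mouse and was not tested. Of 5 tested costimulatory genes, 1 was past the limit, Cd86, with an unadjusted edgeR P of 0.0286 and a value of 1.25 (SE 0.49). Of 10 tested class I-like genes outside H2, 1 was past it, Azgp1, with an unadjusted edgeR P of 0.0452 and a value of 0.30 (SE 0.13). Both counts stand beside 16.7% of all tested genes. The other extremes of these lists were Cd40 at 0.96, Icosl at 0.17 and Cd274 at -0.15 for costimulation, and Procr at 0.99, Raet1d at -0.58 and Raet1e at -0.48 for class I-like genes.

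Markers of the cells that carry class II were summed in each mouse. For 9 Kupffer cell genes the sums were 4716, 3044, 4782 and 4310 normalized counts in WT 22 to 25 and 5726, 11882, 3927 and 17183 in KO 26 to 29. All 9 were tested and had values above 0, 7 of them at an unadjusted P under 0.05 (edgeR), beside 48.3% and 16.7% of all tested genes. KO 29, the highest mouse for H2-Aa, H2-Ab1 and Cd74, was also the highest for these sums, for 8 B cell genes (67.8 to 415.9 in WT and 211.7 to 464.2 in MøFoxO1-KO mice), for 9 dendritic cell genes (175.9 to 312.6 and 223.1 to 372.4) and for 10 T and NK cell genes (52.7 to 130.1 and 99.6 to 213.6). KO 27, with the second highest Kupffer cell sum, had H2-Aa and H2-Ab1 within the WT range. No B cell, dendritic cell or Kupffer cell marker was at 0 in any mouse, and the T and NK cell markers Klrb1c and Ncr1 were at 0 in some. For 10 genes of monocyte-derived macrophages, where S100a4 and Trem2 were at 0 in some mice, the sums were 1805 to 3183 in WT and 1480 to 2758 in MøFoxO1-KO mice. Of the 9 tested, 3 had values above 0 and 6 below, beside 48.3% of all tested genes above 0. At an unadjusted P under 0.05 (edgeR) stood 2, both below 0, beside 16.7% of all tested genes. This list held Lyz2, whose promoter drives Cre in MøFoxO1-KO mice, and the weight of Lyz2 in the sums was not tested. Over the markers of sinusoidal endothelium, cholangiocytes and stellate cells the median log2 fold changes were 0.23, -0.23 and 0.02. For stellate cells KO 29 had the highest sum too, 8009 normalized counts against 4235 to 7061 in WT mice. It was not the highest mouse for hepatocytes, monocyte-derived macrophages, sinusoidal endothelium or cholangiocytes. The part of cell composition in the class II values was not tested.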

How the data were processed

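Polyadenylated RNA of each liver was sequenced, and reads were turned into counts per gene by the authors. The submitters' processing notes name STAR, featureCounts and mm10 (GRCm38), whereas versions, strandedness and the handling of multi-mapped reads are not given in the sources used here. The deposited table holds unnormalized whole-number counts of 46517 Ensembl genes in 8 mice, 46005 of which received symbols from GENCODE M21, with summed exon lengths for levels per kilobase. Genes with low counts were removed with filterByExpr (minimum count 10, total 15), libraries were scaled by TMM, and MøFoxO1-KO was compared with WT over 13278 genes by the quasi-likelihood test of edgeR 4.0.16 in R 4.3.3, with Benjamini-Hochberg adjustment over all of them. The limits were an adjusted P of 0.05 and an absolute log2 fold change of 1.5. DESeq2 1.42.0, voom of limma 3.58.1, other scalings, other filters and leaving out each mouse were alternatives. Single genes were also compared by an exact two-sided permutation test of mean normalized counts over all 70 splits. Mice were grouped by the genotype in the labels, and WT and MøFoxO1-KO mice were littermates with separate libraries. Libraries of 15253218 to 18025481 counts set the counting precision, and errors given as SD are the spread between mice. The SE of a log2 fold change was derived from the edgeR test, as its absolute value divided by the square root of the F statistic. The edgeR steps of the count test, repeated apart from the main fit, were tested on simulated counts. Those counts had the same dispersion for every gene, so single mice far from their group were not simulated. Shared sequence was measured as the percent of 100-base windows of a gene's annotated transcripts that occur in another gene. Every member past the filter is named, others by range or where a mouse reached 10 counts, and of the further lists the genes at an unadjusted P under 0.05 and the 2 largest changes each way, except for an item that is not reported here. Members and lists were chosen with earlier results of these data known. Of the 8 hepatocyte markers listed, 7 were found in the table.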

Additional observations from a re-analysis of the deposited data

Results flagged for a closer look

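In 7 of 60 groups of 4 mice, 1 mouse lay far from the other 3 by Dixon's criterion, which chance meets in about 1 in 20 groups. KO 28 was the highest MøFoxO1-KO mouse by such a gap for 5 genes, with 3056 normalized counts of H2-T23, 1115 of H2-T22, 446.6 of H2-Eb1, 62.6 of H2-Q5 and 728.2 of Tap1. KO 29 stood above its group for H2-DMb2, at 125.3 normalized counts. WT 22 stood above the other WT mice for H2-Q10, at 40892 normalized counts. The cause of these gaps was not tested.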

How the results depend on the processing

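No paired analysis was possible because the labels do not say which mice shared a litter. Across the alternatives, 15 for most genes and 14 for H2-Bl, H2-Ob and H2-Q5, which the filter of 10 counts in every mouse removes, 22 of the 30 tested genes kept the direction of their log2 fold change. With limma-voom, Nlrc5 turned to -0.041 and Ciita to -0.070, and H2-Eb1 was -3.48, H2-Q5 -4.46 and H2-T22 -2.39. When single mice were left out, log2 fold changes ran from -0.31 to 0.21 for Nlrc5, -0.12 to 0.15 for Tap1, -0.093 to 0.16 for H2-Q4, -0.25 to 0.45 for Cd74, -0.37 to 0.25 for Ciita, -0.29 to 0.50 for H2-Aa, -0.23 to 0.58 for H2-Ab1 and -0.20 to 0.61 for H2-DMa. For class I, 0 members passed both limits in the main setting, 2 in DESeq2, 2 without the filter on low counts, and 0 to 3 when single mice were left out, while 5, 2, and 0 to 3 had an adjusted P under 0.05. Class I genes without overlap between genotypes numbered 4 with all mice and 4 to 10 with a mouse left out, the highest being 9 without WT 23 (12.5% of tested genes) and 10 without KO 28 (16.1% of tested genes), against 9.71% with all mice. For class II, 0 to 1 members passed both limits, and 0 to 1 an adjusted P under 0.05, when single mice were left out. The class II count at an unadjusted P under 0.05 was 2, against 4 without the filter and 1 to 2 with a mouse left out. The share of all genes at that limit was taken only in the main fit (16.7%), so the other counts have no share beside them. Class II genes without overlap numbered 1, against 0 with upper-quartile scaling and 1 to 2 with a mouse left out. Class II genes with a value above 0 numbered 7, and 2 to 7 with a mouse left out, the lowest without KO 29. Reads shared between related H2 genes and depth limit the genes with few counts.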
